A study of Mus musculus with 2 samples.

Results

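The Fos and Jun genes of activator protein 1 (AP-1) were examined in mouse embryonic fibroblasts (MEFs), with knockout cells for the kinase gene Lats2 (KO) set against wild-type cells (WT). The family was taken as 7 genes, with Fos, Fosb, Fosl1 and Fosl2 on the Fos side and Jun, Junb and Jund on the Jun side, out of 28311 genes with a value on both arrays. An exact match of gene names finds 6 of them, because the array files list Jund under its older symbol Jund1. That gene was added through the accession of its probe. The family was represented by 9 probes of 60 bases, or 27 spots on each array, out of 41174 probes. The family was selected on its log2 ratios between these same RNAs. The ratios below are therefore a description, and no test was made of them.

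The MEFs came from C57BL/6J mice of the genotypes LATS2-/- and LATS2+/+, grew in serum-containing medium and received no treatment. The age of the embryos, and whether littermates, pooled embryos or several lines were used, is not given in the labels. Both RNAs were labelled with cyanine dyes and hybridised together to whole mouse genome arrays. One array had KO in Cy5 against WT in Cy3, and the other had the dyes exchanged. These 2 arrays were counted as 1 replicate, since nothing in the labels names separate cultures. The spread between them then measures hybridisation and dye error, and no biological replicate checks the differences between genotypes.

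AP-1 is a dimer of basic leucine zipper proteins. Jun proteins pair with each other or with Fos proteins, whereas Fos proteins need a Jun partner to bind DNA. Fos, Fosb, Jun and Junb are immediate early genes, which serum, growth factors and stress switch on within minutes without new protein synthesis, and in fibroblasts AP-1 drives genes of cell cycle entry and of matrix turnover.

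The labels were checked on the targeted gene. Of 4 probes for Lats2, 3 gave more signal from the RNA labelled KO in both orientations, with mean log2 ratios of 0.56 to 0.63, and 1 gave less, at -0.35. Where the deletion lies relative to these probes is not given in the sources used here. The RNAs are therefore called labelled KO and labelled WT, and every direction rests on the labels. Median signals were 96.8 and 98.5 units in Cy5 and 60.1 and 58.2 units in Cy3, over local backgrounds of 30 to 36 units. All 10 fibroblast markers measured had a signal well above background in 1 RNA or both and 0 were called, with a median log2 ratio of -0.33 and extremes of -0.89 (Vim) and 0.90 (Fn1). The Vim probe was dim, at 74.8 and 79.2 units in the RNA labelled KO against 130 and 156 in the RNA labelled WT. In the RNA labelled KO it stood well above background on 1 array only. No endothelial marker (of 4) or skeletal muscle marker (of 4) stood well above background on both arrays in either RNA. By contrast, 1 of 5 epithelial and 3 of 4 neural genes did, and none of these was called. Of 5 macrophage and blood genes, 3 did and 1 of them was called lower.

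The family split by direction. Fos, Fosb, Jun, Junb and Jund were lower in the RNA labelled KO in both orientations, by 2.003-fold (Jun) to 13.3-fold (Fos) on the mean of the arrays. Fosl1 and Fosl2 were higher on both, by 1.64-fold and 1.604-fold. With each array centred on its median in place of loess, Fosl2 was higher only with KO in Cy5 (1.56, against -0.17 with KO in Cy3). A call required a log2 ratio of 1 or more, or of -1 or less, on both arrays alike, with a signal well above background on both arrays in the RNA where it was higher. By that rule Fos, Fosb and Junb were called lower, or 3 of the 7, beside 2.53% of the 16287 genes with a signal well above background in 1 RNA or both. No member was called higher, beside 2.90% of those genes. At 1.5-fold on each array 5 members were called lower, beside 7.07% of genes, and Fosl1 alone was called higher, beside 6.96%. Nothing is read from these shares, since the ratios themselves chose the family. The median log2 ratio was -1.17 over the 7 members, -1.24 over the Fos side and -1.17 over the Jun side, against -0.0039 over all genes well above background.

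**Figure D1:**
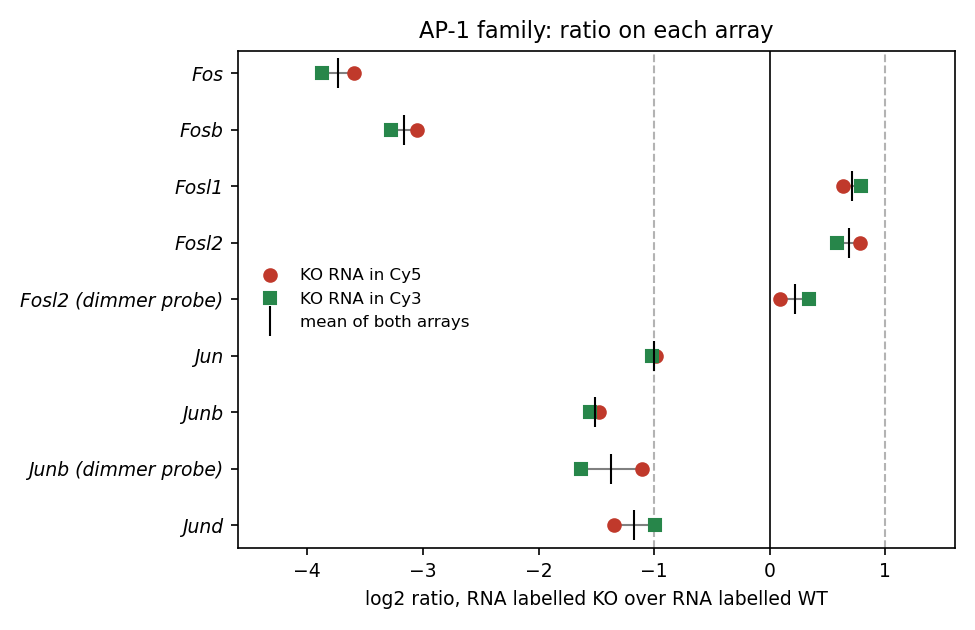
Log2 ratio of the RNA labelled KO over the RNA labelled WT for the 9 probes of the Fos and Jun genes, with KO in Cy5 (circles) and in Cy3 (squares), the mean of both (vertical ticks) and 2-fold limits (dashed lines). Fos and Fosb sit between -3.87 and -3.05, the Jun genes between -1.64 and -0.98, and Fosl1 and both Fosl2 probes between 0.09 and 0.79.

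The upstream sequences of the 5 genes that were lower are shown beside that of Fosl2, which was higher, because the immediate early members are known to be switched on through short elements close to the transcription start. Each line gives the 150 bases before the start in RefSeq (GRCm38.p6), 5′ to 3′ on the strand of the gene. Capitals mark TGACG, the first bases of the cAMP response element to which CREB and ATF proteins bind, and in Jun the letters TGACATCA, picked after the sequence had been read. The stretches are chr12:85473740-85473889 on the plus strand (Fos), chr7:19310046-19310195 on the minus strand (Fosb), chr8:84978749-84978898 on the minus strand (Junb), chr4:95052223-95052372 on the minus strand (Jun), chr8:70697589-70697738 on the plus strand (Jund) and chr5:32136322-32136471 on the plus strand (Fosl2).
Fos: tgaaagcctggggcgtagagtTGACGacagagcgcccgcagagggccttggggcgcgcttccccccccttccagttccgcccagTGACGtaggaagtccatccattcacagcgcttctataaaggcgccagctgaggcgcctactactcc
Fosb: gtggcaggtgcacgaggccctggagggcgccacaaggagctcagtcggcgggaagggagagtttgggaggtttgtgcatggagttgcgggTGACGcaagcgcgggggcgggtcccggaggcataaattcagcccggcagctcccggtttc
Junb: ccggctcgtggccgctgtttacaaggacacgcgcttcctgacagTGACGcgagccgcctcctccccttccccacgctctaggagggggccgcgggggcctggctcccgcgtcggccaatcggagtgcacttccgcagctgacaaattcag
Jun: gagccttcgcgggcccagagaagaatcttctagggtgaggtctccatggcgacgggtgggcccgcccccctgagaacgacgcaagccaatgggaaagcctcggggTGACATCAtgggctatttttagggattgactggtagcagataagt
Jund: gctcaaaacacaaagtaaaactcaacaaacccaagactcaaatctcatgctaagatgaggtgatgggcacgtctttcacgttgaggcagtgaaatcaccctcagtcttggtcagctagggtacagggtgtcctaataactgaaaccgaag
Fosl2: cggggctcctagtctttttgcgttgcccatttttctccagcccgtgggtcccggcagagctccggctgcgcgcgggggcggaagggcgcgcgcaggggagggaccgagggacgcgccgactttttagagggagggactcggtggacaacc

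TGACG began 129 and 66 bases upstream of the start in Fos, 60 bases upstream in Fosb and 106 bases upstream in Junb, the 3 members called lower. Jun and Jund, which were lower and just missed that call, held no TGACG. The TGACATCA of Jun began 45 bases upstream. Neither set of letters was found in Jund, which was lower, or in Fosl2. Both strands were searched from 250 bases before to 50 bases after the start, in 6 members for which RefSeq gave a promoter (all but Fosl1). TGACG was present in 3 of the 6 and in 20.8% of 32851 mouse promoters, and TGACATCA in 1 of the 6 and in 3.62%. The whole cAMP response element, in which TGACG is followed by TCA, was in 0 of the 6 and in 1.79% of promoters. The AP-1 site TGAGTCA was in 0 of the 6 and 5.20%, and the CArG box, to which serum response factor binds, in 0 of the 6 and 1.63%. These matches describe letters in this window and are not evidence of binding. A count of 0 says nothing of sites farther from the start, which were not searched.

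Fos encodes c-Fos, the founding partner of Jun in AP-1 and a standard readout of growth factor signalling. On the array with KO in Cy5 its normalised intensity was 399 units in the RNA labelled KO and 4831 units in the RNA labelled WT, and on the array with KO in Cy3 it was 377 and 5524 units. Both KO values lay far below both WT values, and the exchange of dyes left the levels of each RNA close together. The log2 ratios were -3.60 and -3.87, with a mean of -3.73 (SD between arrays 0.194), so the RNA labelled KO held 7.51% of the WT level. Only 7 of the 16287 genes well above background had a lower mean ratio, or 0.0430%.

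The Fos probe (mm8 chr12:86366053-86366112, plus strand) was spotted 10 times on each array, which shows the error within an array. Its spots ranged from -3.65 to -3.52 (SD 0.0411) with KO in Cy5 and from -3.93 to -3.77 (SD 0.0527) with KO in Cy3, with no spot set aside as an outlier. The 2 ranges did not overlap, so the gap of 0.275 between the arrays was larger than the spread of the spots. Before normalisation, the signal of the RNA labelled KO was 16.2 times its local background in Cy5 and 7.20 times in Cy3. That of the RNA labelled WT was 88.4 times in Cy3 and 241 times in Cy5. The dimmer RNA was thus still measured and not merely bounded.

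Fosb encodes the member closest to c-Fos, which is induced by the same stimuli and also yields a truncated form by splicing. Its probe (mm8 chr7:18461650-18461709, minus strand) gave 230 units in the RNA labelled KO and 1904 units in the RNA labelled WT with KO in Cy5, and 217 and 2095 units with KO in Cy3. As for Fos, both KO levels were far under both WT levels. The log2 ratios of -3.05 and -3.27 averaged -3.16 (SD 0.159), or 11.2% of the WT level, and 18 genes had a lower mean. The unnormalised KO signal was 8.34 times background in Cy5 and 3.62 times in Cy3, the closest to background among the brightest probes of the family.

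Fosl1 encodes Fra-1, a Fos protein without the strong activation domain of c-Fos whose gene is itself a target of AP-1. Its probe (mm8 chr19:5455496-5455555, plus strand) gave 878 units in the RNA labelled KO against 565 units in the RNA labelled WT with KO in Cy5, and 911 against 526 units with KO in Cy3. The levels of the RNA labelled KO were above those of the RNA labelled WT in both orientations, the reverse of Fos and Fosb. The log2 ratios were 0.64 and 0.79 with a mean of 0.72 (SD 0.110), short of the 2-fold limit. The ratio of Fosl1 exceeded that of Fos by 4.23 on one array and 4.67 on the other on the log2 scale.

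Fosl2 encodes Fra-2, which also lacks the strong activation domain of c-Fos, and 2 probes on chromosome 5 read it. The brighter (mm8 chr5:32433832-32433891) gave 1363 units in the RNA labelled KO and 793 units in the RNA labelled WT with KO in Cy5, and 1265 and 845 units with KO in Cy3. The log2 ratios were 0.78 and 0.58, with a mean of 0.68 (SD 0.141). On the second array the value lay just under the 1.5-fold limit, which is why Fosl1 was called at that limit and Fosl2 was not. The dimmer probe (mm8 chr5:32429296-32429355), 4476 bases away and without shared bases, gave 104.6 units against 98.1 and 108 against 85.6.

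With loess, both Fosl2 probes were thus higher in the RNA labelled KO in both orientations, but the dimmer by less. Its log2 ratios were 0.09 and 0.34 with a mean of 0.22, which is 0.465 below the brighter probe. Averaging both probes put Fosl2 at 0.45, its lowest value under the alternatives tried.

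**Figure D2:**
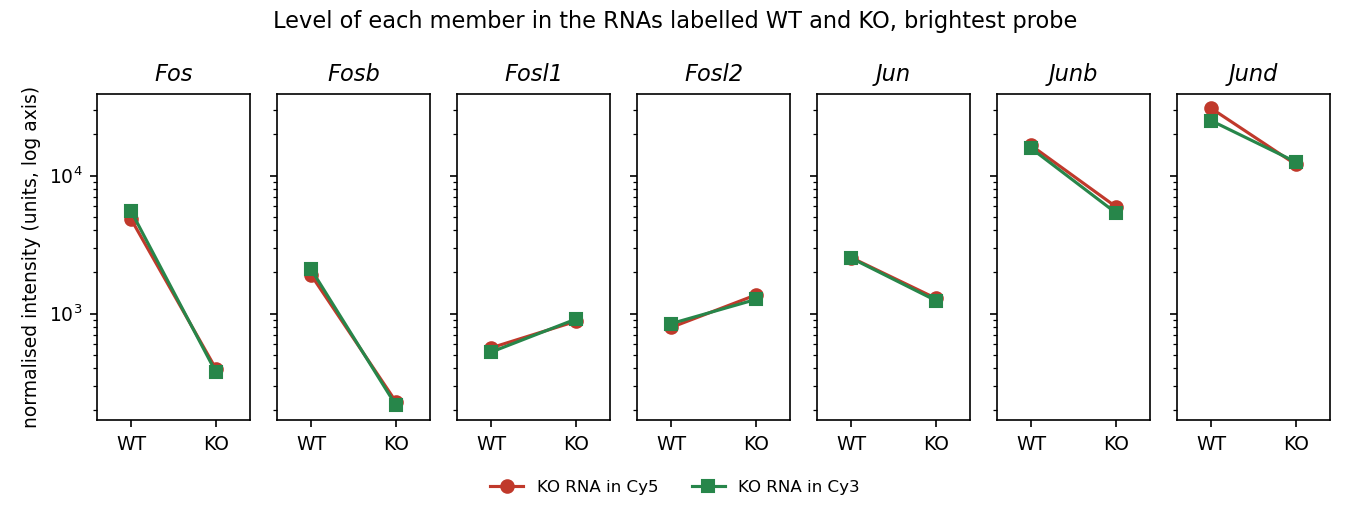
Normalised intensity (log axis) of the brightest probe of each of the 7 genes in the RNAs labelled WT and KO, where a line joins the channels of 1 array with KO in Cy5 (circles) or in Cy3 (squares). Fos stands at 4831 and 5524 units for WT and at 399 and 377 for KO, Fosl1 and Fosl2 slope upwards on both arrays, and levels are comparable within a panel and not between panels.

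Junb encodes a Jun protein that activates many AP-1 sites less than c-Jun and can hold c-Jun in check. Its brighter probe (mm8 chr8:87867087-87867146, minus strand) gave 5951 units in the RNA labelled KO and 16529 units in the RNA labelled WT with KO in Cy5, and 5373 and 15758 units with KO in Cy3. No KO level reached any WT level. The log2 ratios of -1.47 and -1.55 averaged -1.51 (SD 0.0555), or 35.0% of the WT level. A second probe (mm8 chr8:87867049-87867108), which shares 22 bases with the first and is no independent reading of the gene, gave -1.11 and -1.64 with a mean of -1.37. Its gap of 0.529 between the arrays was the widest of the 9 probes.

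The Junb call turned on how the dye effect was removed. With each array centred on its median in place of loess, the ratio was -0.43 on the array with KO in Cy5 and -2.41 on that with KO in Cy3. The mean moved little, to -1.42, but the first array no longer passed 2-fold. Fos and Fosb were still called under that setting, with means of -3.72 and -3.16.

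Jun encodes c-Jun, the main activating partner of c-Fos and a substrate of the JNK kinases. Its probe (mm8 chr4:94541191-94541250, minus strand) was spotted 10 times and gave 1289 units in the RNA labelled KO against 2547 units in the RNA labelled WT with KO in Cy5, and 1243 against 2524 with KO in Cy3. The arrays returned nearly the same levels for each RNA. The log2 ratios were -0.98 and -1.02 with a mean of -1.002, and the SD between arrays of 0.0280 was the smallest in the family. Spots ranged from -1.03 to -0.91 on the first array and from -1.05 to -0.97 on the second. The ratio thus straddled the 2-fold limit within the spread of its own spots, and Jun missed the call on the first array only.

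Jund encodes the Jun protein that is expressed most steadily in quiescent cells and is not an immediate early gene. Its probe (mm8 chr8:73629526-73629585, plus strand) gave 12034 units in the RNA labelled KO and 30703 units in the RNA labelled WT with KO in Cy5, and 12541 and 25004 units with KO in Cy3. The KO levels were below the WT levels on both arrays. The log2 ratios were -1.35 and -0.995 with a mean of -1.17 (SD 0.252), or 44.3% of the WT level. Jund lay just outside the call on the second array, and the difference between arrays was larger than that of any other gene's brightest probe. For comparison, the arrays differed with a pooled SD of 0.137 for one probe, over probes well above background in both RNAs.

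Ordered by mean log2 ratio, Fos and Fosb stood at -3.73 and -3.16, Junb, Jund and Jun at -1.51, -1.17 and -1.002, and Fosl2 and Fosl1 at 0.68 and 0.72. Fosl1 and Fosl2 differed from each other by less than their SD between arrays, and Jund and Jun by less than that of Jund. Between Fosl2 and Fosb the distance was 3.83 on one array and 3.85 on the other. In bulk RNA, fewer cells that express a gene and less RNA per cell cannot be told apart.

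**Figure D3:**
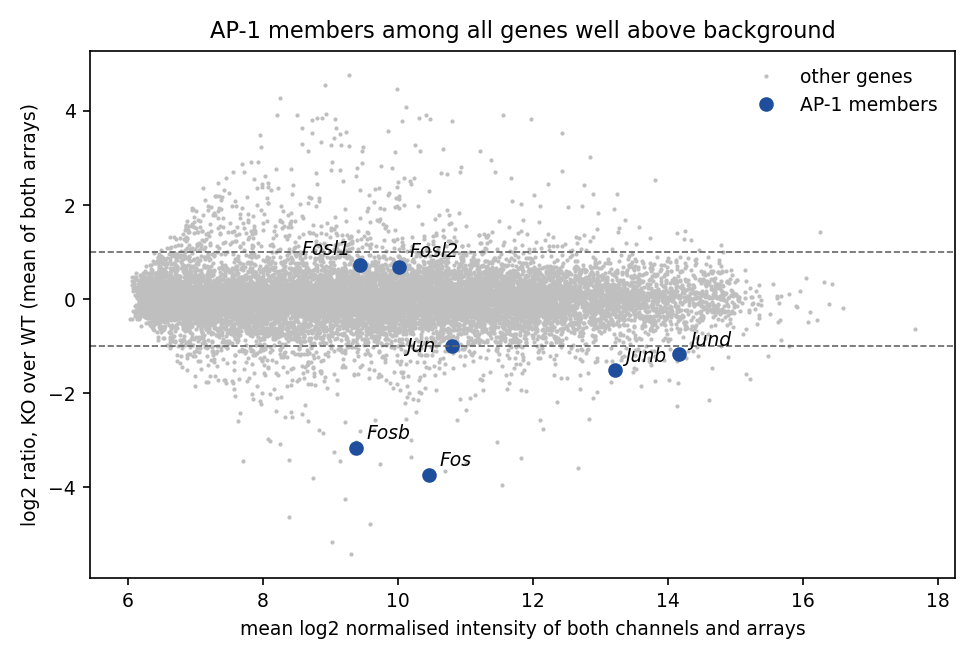
Mean log2 ratio of the RNA labelled KO over the RNA labelled WT against mean log2 normalised intensity for 16287 genes well above background in at least 1 RNA (grey), with the 7 Fos and Jun genes in blue and 2-fold limits dashed. Fos (-3.73) and Fosb (-3.16) lie near the lower edge of the cloud, Junb and Jund among the brightest genes below the limit, and Fosl1 and Fosl2 inside the limits.

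The genes whose pair of ratios lay closest to each called member were looked up among 10240 genes with a symbol that were well above background in both RNAs. The closest to Fos were Aqp1 (mean -3.59), a water channel, Gpc3 (-3.80), a cell surface proteoglycan, and Egr1 (-3.95), a zinc finger factor of the immediate early class, at distances of 0.227, 0.237 and 0.301 on the log2 scale over the 2 arrays. Fosb lay closest to Cck (-3.07), Bmp3 (-3.26) and Cyp26b1 (-3.04), and Junb to Rftn2 (-1.56), Rdm1 (-1.46) and Scx (-1.52). Likeness over 2 values says only that the sizes were close.

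The genes around AP-1 were then counted in 6 lists, all written with earlier results of these data known. Each count of calls is to be set beside the 2.53% of genes called lower and 2.90% called higher over the 16287 genes, and nothing particular to a list is read from it. Fos and Jun proteins also pair with ATF, BATF, JDP and small MAF proteins. Of 10 such genes, 8 had a signal well above background in 1 RNA or both, 1 was called higher and 0 lower, with a median of 0.10 over the 10. The called gene was Maff, a small MAF protein without an activation domain, whose level was 1623 against 698 units with KO in Cy5 and 1603 against 748 with KO in Cy3, a mean log2 ratio of 1.16. Its relative Mafk had a ratio of 0.73, Atf3, a stress-induced factor, 0.37, and Jdp2, a repressor of AP-1, 0.23. Apart from Maff, then, no partner outside the family passed 2-fold in either direction.

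Signals reach the Fos and Jun genes through MAP kinases and the factors they act on. None of 16 MAP kinase genes was called, and their ratios ran from -0.67 (Map2k6) to 0.47 (Map2k3) with a median of -0.06. That count depended on the processing. It was 1 called lower with the ratio of Feature Extraction, the deposited log2 table, a background offset of 10 or a 1.5-fold limit. Mapk8, which encodes the kinase JNK1, had a ratio of -0.55, the lowest of its 5 probes, which ran up to 0.05. The 3 probes of Map2k6 likewise ran from -0.67 to -0.02. Of 11 genes for factors that bind Fos and Jun family promoters, Mef2c was called lower at -1.35, while its other probe stood at -0.02, and the median of the list was -0.04. With the mean of both probes, -0.68, Mef2c was not called. Srf, the serum response factor of the Fos promoter, had a ratio of 0.28, and Elk3, one of its ternary complex partners, -0.69.

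Of 7 genes that act on the turnover of Fos and Jun products, 1 was called lower. This was Zfp36, which encodes an RNA-binding protein that promotes decay of AU-rich messages such as that of Fos. Its level was 530 against 1102 units with KO in Cy5 and 492 against 1158 with KO in Cy3, a mean of -1.15, and its other probe read -0.56. With the mean of both probes, -0.85, Zfp36 was not called. The other 6 lay between -0.21 and 0.18 by their brightest probes. Cops5, at 0.18, had a dimmer probe that read -0.65.

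Genes known as AP-1 targets did not share one direction. Of 16 measured, Mmp3 was called lower and Il6 higher, and the median was 0.11. With the ratio of Feature Extraction or the deposited log2 table, 3 were called lower and 1 higher. The counts were 2 and 1 with a background offset of 10, and 3 and 3 at 1.5-fold. Mmp3, which encodes the matrix protease stromelysin-1, stood at 130 units in the RNA labelled KO and 761 in the RNA labelled WT with KO in Cy5, and at 163 and 904 with KO in Cy3, a mean log2 ratio of -2.51. Il6, an inflammatory cytokine gene, stood at 249 and 91.1 units and at 207 and 75.8 units, a mean of 1.45. Both ratios were larger in size with Feature Extraction, at -3.28 for Mmp3 and 3.18 for Il6. The remainder were not called, among them Hmox1 at 0.80, Hbegf at 0.72, Ccnd1 at 0.17, Timp1 at 0.02 and Vegfd at -0.75.

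Immediate early genes outside the family went both ways. Of 19 measured, 17 had a signal well above background in 1 RNA or both, 5 were called lower and 2 higher, beside 2.53% and 2.90% of all genes, and the median was 0.11. Egr1 was the lowest, with 810 against 11243 units with KO in Cy5 and 716 against 12272 with KO in Cy3, a mean of -3.95 that lay next to that of Fos. Arc (-1.77), Ier2 (-1.72), Egr2 (-1.43) and Dusp6 (-1.09), a phosphatase of ERK, were the others called lower, and Arc stood at -2.97 by the ratio of Feature Extraction. The 2 called higher were Nr4a1, an orphan nuclear receptor gene at 1.05, and Ier3 at 1.14. Dusp1 (0.11), Myc (0.36) and Ccn1 (0.68) were not called, so the class as a whole did not share the low ratios of Fos, Fosb and Egr1.

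With median centring in place of loess, 3 of the 8 lower calls over these lists were left (Egr1, Arc and Mmp3) and 1 of the 4 higher calls (Il6). Each of the 12 genes kept the sign of its mean. Among 5 macrophage and blood markers, Cd14 was called lower at -1.05, and the summed level of the 5 was 458 and 488 units in the RNA labelled KO against 654 and 679 in the RNA labelled WT. Without Cd14 the other 4 summed to 296.9 and 298.8 units against 310.9 and 300.5. The 4 skeletal muscle genes, not well above background on both arrays in either RNA, summed to 266.3 and 266.9 against 262.9 and 274.1. The sums without Cd14 thus lay near the floor and do not compare the amount of blood cells. Of the 5, Cd14, Csf1r and Cd68 stood well above background in both RNAs on both arrays. Ptprc and Adgre1, which define blood cells and macrophages, did not rise well above background in these RNAs. The part of such cells in the ratios of the Fos and Jun genes was not tested.

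**Figure D4:**
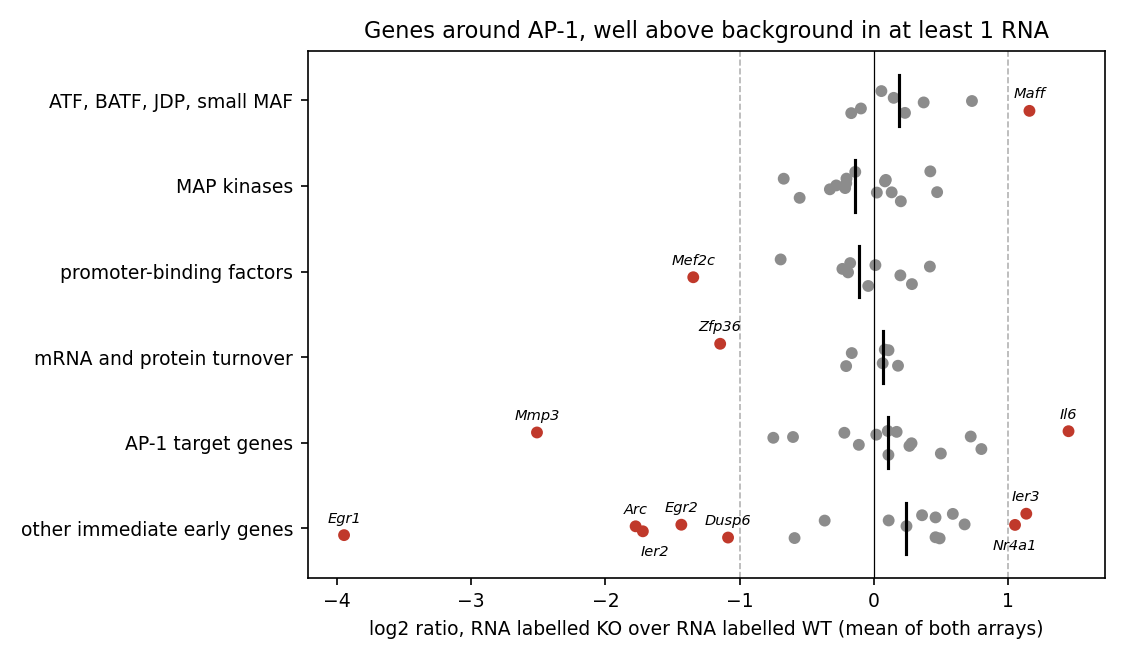
Mean log2 ratio of the RNA labelled KO over the RNA labelled WT for genes well above background in at least 1 RNA in 6 lists around AP-1, with called genes in red and named, others in grey, black bars at the median of the genes shown and 2-fold limits dashed. Egr1 (-3.95) and Mmp3 (-2.51) lie far left while Il6, Nr4a1, Ier3 and Maff lie between 1.05 and 1.45, and no MAP kinase passes 2-fold.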

How the data were processed

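RNA from MEFs of the genotypes LATS2-/- and LATS2+/+ was hybridised to 2 Agilent whole mouse genome arrays with the dyes exchanged. Per the file headers and the submitters' processing notes, signals were read with Agilent Feature Extraction 10.5.1.1, and the authors deposited each spot's mean signal and local background as intensity, with a log10 ratio of Cy5 over Cy3. A deposited table of log2 ratios held KO over WT from Feature Extraction's processed signals (99.8% of probes on each array within 0.01). Probe coordinates are those of the files (mm8).

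Background was removed by normexp with an offset of 50 (limma 3.58.1, R 4.3.3), and signals were normalised by loess within each array, with control spots given no weight. Ratios of dim probes are drawn towards 0 by the offset. Aquantile scaling between arrays gave the channel levels. Spots with outlier flags (390 and 378 of 43379) were left out, spots of a probe were averaged and the ratio of the array with KO in Cy3 was turned. The brightest probe stood for a gene. A probe was well above background where Feature Extraction's flag was set in a share of 0.5 or more of its spots, and no spot was saturated. Names came from a RefSeq accession for 24375 of 41174 probes (4783 with another symbol than the files) and otherwise from the files.

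The members and lists were chosen with earlier results of these data known. Named are the 7 members, Lats2, the called genes of each list or its extremes where none was called, the 3 genes nearest to each called member, and a few genes of the lists picked after their values were seen. Prl2c2, Ccn2, Dusp5 and S100a4 of the lists had no probe matched here. The methods' fold limit of 2 was used. No p-value was computed, because the family was chosen on this contrast and the arrays are 1 replicate. The number of arrays limits the precision. The normalisation and a 2-fold limit on each array were run on a simulated dye swap. That run left out the background flags, the averaging of spots and the choice of probe. Tables and plots were made with Python 3.11.15, pandas 2.3.3, numpy 2.4.6 and matplotlib 3.10.9. There were 11 alternatives, namely the ratio of Feature Extraction, the deposited log2 table, median centring, an offset of 10, no background correction, outlier spots kept, each array alone, the mean of all of a gene's probes, a 1.5-fold limit and a 2-fold limit on the mean of both arrays.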

Additional observations from a re-analysis of the deposited data

How the results depend on the processing

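Each of the 7 Fos and Jun genes kept the sign of its mean log2 ratio under the 9 alternatives that recompute the ratios, and 52 of the 63 values moved by less than the SD between arrays. Fos ranged from -4.01 to -3.60, Fosb from -3.64 to -3.05, Junb from -1.55 to -1.42, Jund from -1.35 to -0.995, Jun from -1.05 to -0.97, Fosl2 from 0.45 to 0.78 and Fosl1 from 0.64 to 0.79. The median of the members was -1.02 to -1.35 on single arrays, each of which alone called 4 of them lower.

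The count of members called lower was 3. It was 5, with Jun and Jund added, with the ratio of Feature Extraction, with the deposited table, at 1.5-fold on each array and with a 2-fold limit on the mean of both arrays. With an offset of 10, and with no background correction, 4 members were called lower. It was 2 with median centring, which lost Junb. One member was called higher at 1.5-fold (1 in place of 0). Over the lists of genes around AP-1, median centring left 3 of 8 lower calls and 1 of 4 higher calls, 1.5-fold gave 7 higher calls, and the mean of all of a gene's probes left 6 lower calls, without Mef2c and Zfp36. For the immediate early genes outside the family median centring left 2 of 5 lower calls and 0 of 2 higher calls. Under median centring the 7 members and the 12 called genes of the lists each had a higher ratio with KO in Cy5 than on the other array, as in Junb at -0.43 and -2.41, and the cause was not tested. Fosl1 then stood at 1.35 and 0.08, and Fosl2 at 1.56 and -0.17. The higher direction of Fosl2 on both arrays thus depended on loess. Each array holds both RNAs, so every ratio is already a paired difference within 1 array. The arrays count as 1 replicate, and no test was made to which a block could be added. Without separate cultures, no alternative measures the spread between animals.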
